A study of Mus musculus with 68 samples.

Results

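The non-clustered delta protocadherins are a family of single-gene adhesion proteins of the cadherin superfamily, and the 9 genes described here are Pcdh1, Pcdh7, Pcdh9, Pcdh8, Pcdh10, Pcdh17, Pcdh18, Pcdh19 and Pcdh20. They were taken by gene symbol from the 19938 genes that the array annotation named, and the list was chosen with earlier results of these data known. For Pcdh9, the brighter of its 2 transcript clusters was kept. A transcript cluster is the set of probes that stands for a transcript on these Affymetrix mouse gene arrays. The 2 Pcdh9 clusters differed by at most 0.19 on the log2 scale in any array, and each of the other 8 genes had 1 cluster. All 9 were tested in every comparison, with no filter on low values.

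The study was a gain-of-function screen for determinants of phrenic motor neurons, the cervical motor neurons that innervate the diaphragm. Mouse embryonic stem cells of strain C57/BL6 were grown as embryoid bodies, to which a Smoothened agonist and retinoic acid were added on day 2. On day 5 the motor neurons were isolated magnetically through a motor neuron-specific surface reporter transgene, CD2 or CD14, and doxycycline then switched on 1 or 2 genes during 30 h of culture on matrigel. All groups share these steps, so every value comes from cells selected for a motor neuron reporter. In cells sorted for CD2, 18 lines were induced: Arid5b, Btbd3, Chd5, Lhx3 (DN), Hey1, Hoxa5, Hoxc6, Klf5, Klf6, Lhx3, Notch1 ICD (10), Notch1 ICD (30), Pou3f1, Sfmbt2, Tox, Vwc2, Zbtb7c and Zic1. In cells sorted for CD14, 8 lines were induced: NERT (10), NERT (30), Pou3f1, Flag;Pou3f1, and Pou3f1 together with Hoxa5, Hoxc6, Lhx3 or Lhx3 (DN). Lhx3 (DN) is written DNLhx3 below, Flag;Pou3f1 is written Pou3f1-FLAG, and Notch1 ICD, the Notch1 intracellular domain, is written Notch1ICD with the number of its label. The meaning of NERT was not spelled out, and the numbers 10 and 30 are used as labelled. The protocol says only that some of the Notch experiments limited induction to the last 10 h. The controls were cells induced with YFP, with 4 arrays for each reporter. Pou3f1 in CD2 cells had 4 arrays and every other induced line had 2. Parental lines named H4 (3 arrays) and E3 (1 array, and 2 more in batch 0 labelled as induced) were used for levels only. Whether replicate arrays stand for separate cultures, and whether a line is 1 clone, is not stated, so p-values measure the spread between these arrays, which may be technical.

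Delta protocadherins carry extracellular cadherin repeats that bind the same molecule on a neighbouring cell, and weakly adhesive contacts of this kind sort axons, dendrites and cell bodies into groups. Pcdh1, Pcdh7 and Pcdh9 form the delta-1 subgroup, which has an extra cadherin repeat and a cytoplasmic motif that binds protein phosphatase 1 alpha. Pcdh8, Pcdh10, Pcdh17, Pcdh18 and Pcdh19 form the delta-2 subgroup, several members of which recruit the WAVE actin-regulatory complex through its subunit Nckap1, and Pcdh20 is usually set apart from both. Spinal motor neurons express different combinations of cadherins and protocadherins from one motor pool to the next, and Pcdh10 has been described in phrenic motor neurons.

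The stretches upstream of the genes whose levels moved most are shown because they are the DNA nearest the start of each gene, and the genes fell into sets that rose or fell in the same lines. Each is the 250 bases before the annotated start, 5′ to 3′ on the gene's own strand, from the RefSeq promoter table of build GRCm38.p6. Windows of 8 members were used, all but Pcdh1, which was not searched, so the counts of words below do not cover it. For Pcdh9, with 2 entries that overlap, the first is shown. Capitals mark the words searched for on both strands: the octamer ATGCAAAT read by POU proteins such as Pou3f1, the homeodomain word TAATTA, the RBPJ word GTGGGAA of the Notch pathway, and CCAAT. The word CCAAT was added after the sequences had been looked at. Pcdh10 and Pcdh19 rose in several lines with Pou3f1.
Pcdh10, chr3:45378148-45378397, plus strand: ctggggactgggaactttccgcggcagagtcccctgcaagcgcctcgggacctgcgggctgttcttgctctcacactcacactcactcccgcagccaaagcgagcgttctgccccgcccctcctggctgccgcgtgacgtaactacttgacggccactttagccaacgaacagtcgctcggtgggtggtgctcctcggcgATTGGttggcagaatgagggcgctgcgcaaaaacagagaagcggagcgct
Pcdh19, chrX:133688994-133689243, minus strand: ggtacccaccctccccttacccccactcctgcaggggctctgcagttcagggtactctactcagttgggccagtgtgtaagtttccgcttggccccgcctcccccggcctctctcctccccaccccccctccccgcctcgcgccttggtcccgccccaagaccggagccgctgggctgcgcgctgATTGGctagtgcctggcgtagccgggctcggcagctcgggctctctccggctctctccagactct
Pcdh17 rose in both lines with Hoxc6.
Pcdh17, chr14:84443313-84443562, plus strand: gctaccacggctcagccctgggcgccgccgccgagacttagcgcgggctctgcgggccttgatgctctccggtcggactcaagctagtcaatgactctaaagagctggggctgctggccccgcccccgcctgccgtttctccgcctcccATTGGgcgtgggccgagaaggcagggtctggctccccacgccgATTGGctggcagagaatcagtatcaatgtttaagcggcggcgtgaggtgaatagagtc
Pcdh7 and Pcdh9 fell together with DNLhx3.
Pcdh7, chr5:57717831-57718080, plus strand: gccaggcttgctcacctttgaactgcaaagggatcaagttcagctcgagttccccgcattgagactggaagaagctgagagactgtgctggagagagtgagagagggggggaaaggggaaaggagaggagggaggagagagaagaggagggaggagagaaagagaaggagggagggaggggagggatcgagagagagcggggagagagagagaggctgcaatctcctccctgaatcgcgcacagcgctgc
Pcdh9, chr14:93890680-93890929, minus strand: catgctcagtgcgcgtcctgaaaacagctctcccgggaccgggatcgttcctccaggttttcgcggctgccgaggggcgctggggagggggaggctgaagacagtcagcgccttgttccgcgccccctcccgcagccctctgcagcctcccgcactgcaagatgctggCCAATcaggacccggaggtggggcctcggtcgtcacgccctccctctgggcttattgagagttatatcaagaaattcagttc
Pcdh8 held the sole octamer among the 8 windows.
Pcdh8, chr14:79771313-79771562, minus strand: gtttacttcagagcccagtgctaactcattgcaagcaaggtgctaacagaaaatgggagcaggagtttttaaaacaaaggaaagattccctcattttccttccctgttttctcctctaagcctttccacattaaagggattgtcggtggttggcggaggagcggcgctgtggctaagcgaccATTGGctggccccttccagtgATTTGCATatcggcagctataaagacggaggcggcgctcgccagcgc
The octamer in Pcdh8 lay on the opposite strand, with its near end 40 bases before the start, and 1.6% of all 32851 windows of this length held it. Neither TAATTA, held by 4.84% of windows, nor GTGGGAA, held by 5.42%, was in any of the 8. CCAAT was in 7 of the 8 windows, all but that of Pcdh7, and in 33.8% of all windows. GC content was 63.2% for Pcdh10, 69.2% for Pcdh19, 64.8% for Pcdh17, 63.6% for Pcdh9, 58.4% for Pcdh7 and 51.2% for Pcdh8, beside a median of 52.4% over all windows. These matches are descriptions of letters in a window.

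The values are log2 levels, so a difference of 1 is a doubling. Levels of different genes are not compared, since each gene has its own probes. Array medians ran from 7.57 to 7.84 in batches 1 to 7, where batch is the number in the sample titles, and from 7.08 to 7.09 in batch 0. Across genes, 21 pairs of replicate arrays from 1 batch correlated at 0.981 to 0.996, and 26 pairs split over batches at 0.97 to 0.99. The 8 motor neuron markers (Mnx1, Isl1, Isl2, Chat, Slc18a3, Slc5a7, Prph and Lhx3) averaged 10.84 to 11.14 in the YFP arrays of CD2 cells and 11.11 to 11.21 in those of CD14 cells. The 12 progenitor markers averaged 10.17 to 10.67 and 10.05 to 10.37 in the same arrays. The 4 pluripotency markers averaged 6.39 to 6.48 and 6.31 to 6.41. In bulk RNA, fewer cells of a type and less RNA per cell cannot be told apart. No YFP array was in batch 4 or 5, and none of CD2 cells in batch 6, so lines there were tied to the controls through groups that lie in several batches. Hoxa5, the cervical Hox gene, read 12.14 to 12.75 in 6 of the 9 batch 4 arrays (Hoxa5, Chd5, Arid5b, H4 and the 2 of Pou3f1) and 9.62 to 9.9 in the other 3. Some results that rest on those 6 arrays are given with and without them, and others only with them.

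A member was called changed in a comparison where limma gave an adjusted p under 0.05 (Benjamini-Hochberg, over the 19938 genes of that comparison). Of the 234 pairs of a member and a line compared with YFP of the same reporter, 30 were called (12.8%), 15 higher and 15 lower. Over all genes a mean of 2.06% were called in the same 26 comparisons. The members were chosen with earlier results of these data known, so the 12.8% is no independent test of them. Without the 6 batch 4 arrays, 33 pairs were called. The number of all genes called moved there too, from 1210 to 1403 for Notch1ICD 30 and from 591 to 154 for Notch1ICD 10. With all arrays, calls fell on 7 of the 9 genes and in 14 of the 26 lines. Pcdh9 fell in 6 lines and rose in none, Pcdh10 rose in 5 and fell in none, Pcdh19 rose in 3 and Pcdh17 rose in 2. Pcdh8 rose in 2 and fell in 5, Pcdh7 rose in 1 and fell in 3, and Pcdh1 rose in 2 and fell in 1. Pcdh18 and Pcdh20 were called in none.

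**Figure D1:**
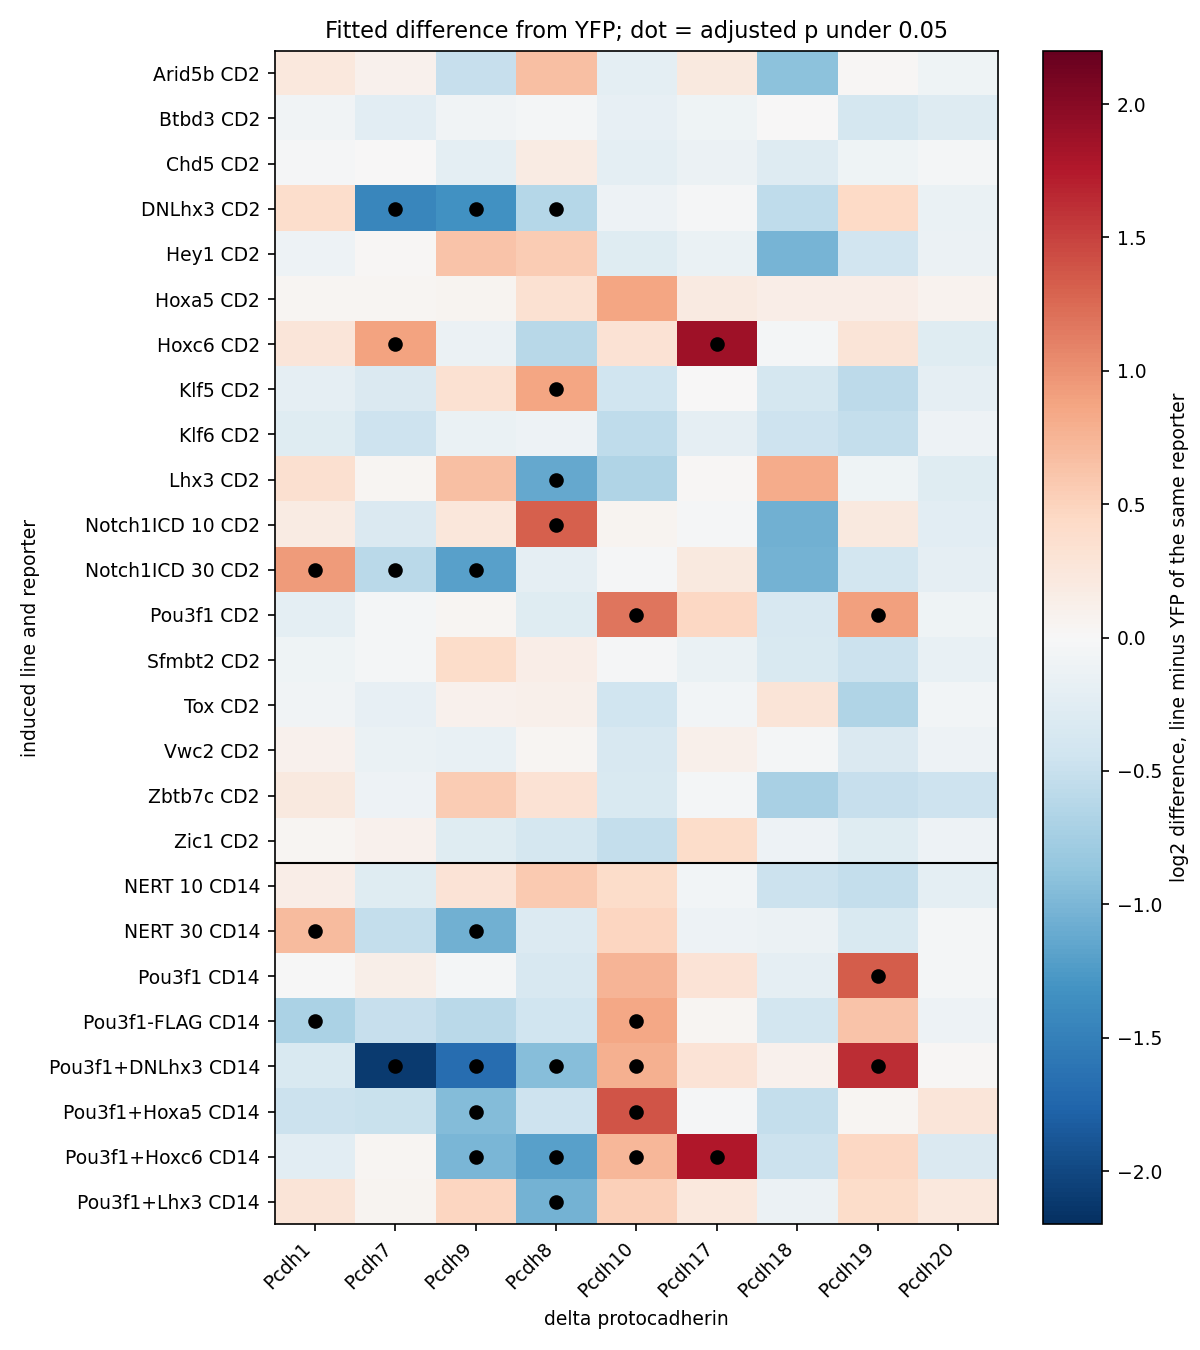
Heat map of the fitted log2 difference from YFP of the same reporter for the 9 genes (columns) in the 26 induced lines (rows, CD2 lines above the black line and CD14 lines below). Red is higher, blue is lower and a black dot marks an adjusted p under 0.05. The 15 higher calls include 5 of Pcdh10, all in lines with Pou3f1, and the 15 lower calls include 6 of Pcdh9.

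In 12 lines no member was called, and in the same fit few genes of any kind were. The share of all genes called was 0% for Chd5, Hoxa5 and Sfmbt2, 0.01% for Arid5b, 0.015% for Vwc2, 0.0251% for Zbtb7c, 0.0451% for Btbd3 and 0.0602% for Tox. It was 0.291% for Zic1, 0.361% for Hey1, 0.416% for NERT 10 and 0.471% for Klf6. At an unadjusted p under 0.05, 3 of the 9 members passed in Arid5b, Hey1, Klf6, Zbtb7c and NERT 10, 2 in Tox, 1 in Hoxa5 and Sfmbt2, and 0 in Btbd3, Chd5, Vwc2 and Zic1. The share of all genes at that unadjusted threshold was not counted, so these counts cannot be set against it. Calls at the adjusted threshold moved with the fit. Without the 6 batch 4 arrays, the number of all genes called went from 0 to 85 for Hoxa5 and reached 224 for Klf6, and Pcdh19 was called lower in Klf6 and Tox. With CD14 arrays fitted alone, 1009 genes were called for NERT 10, among them Pcdh8 (0.57, adjusted p = 0.00721 by limma), Pcdh10 (0.4, 0.00752) and Pcdh19 (-0.53, 0.0416).

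Pcdh10, which controls the growth and guidance of axons in the forebrain, was higher with Pou3f1 than with YFP of the same reporter in every array that had YFP in its own batch. Pou3f1 is the POU-domain factor that marks phrenic motor neurons. In CD2 cells Pcdh10 read 11.67 in batch 1, 11.74 in batch 2, and 11.05 and 11.3 in batch 4 with Pou3f1. The YFP arrays read 10.84 in batch 1, 10.2 in batch 2, and 10.61 and 10.09 in batch 3, so the groups did not overlap. The fitted rise was 1.17 ± 0.15 (SE, 4 against 4 arrays, adjusted p = 5.2e-06 by limma), or 2.25-fold, and 1.3 without the 6 batch 4 arrays. Array by array, the rise over YFP of the same batch was 0.83 in batch 1 and 1.54 in batch 2. Pou3f1 itself rose by 1.09 ± 0.15 in this line (adjusted p = 9.84e-06 by limma).

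In CD14 cells the YFP arrays read 9.85 and 9.92 for Pcdh10 in batch 6 and 9.39 and 9.36 in batch 7. With Pou3f1 alone it read 10.67 and 10.61, with Pou3f1-FLAG 10.77 and 10.7, with Pou3f1+DNLhx3 10.66 and 10.67, and with Pou3f1+Hoxc6 10.6 and 10.64, all in batch 6. These 8 arrays, from 10.6 to 10.77, lay above all YFP arrays. With Pou3f1+Hoxa5 it read 11.33 and 11.21, above every other CD14 array. With Pou3f1+Lhx3, in batch 7, it read 10.02 and 9.78, above both YFP arrays of that batch but not above all of batch 6. The rise was 1.38 ± 0.19 for Pou3f1+Hoxa5 (2 against 4 arrays, adjusted p = 1.41e-05 by limma), or 2.61-fold. It was 0.85 for Pou3f1-FLAG (adjusted p = 0.0122), 0.78 for Pou3f1+DNLhx3 (0.0103) and 0.73 for Pou3f1+Hoxc6 (0.0115), each ± 0.19. Each of these 3 calls was lost when any of 4 of the 6 arrays compared was left out, with adjusted p from 0.057 to 0.186. Pou3f1+Hoxa5 exceeded Pou3f1 alone by 0.63 ± 0.19, which missed the threshold (adjusted p = 0.0624) but passed without the 6 batch 4 arrays (0.0453) and in CD14 arrays fitted alone (7.25e-05).

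Pcdh10 did not pass the threshold with Pou3f1 alone in CD14 cells, at 0.75 ± 0.19 (95% interval 0.36 to 1.15, adjusted p = 0.0906 by limma), nor with Pou3f1+Lhx3, at 0.52 ± 0.19 (0.163). In a fit of CD14 arrays alone both passed (adjusted p = 4.06e-05 and 0.000186), and so did 0.4 for NERT 10 (0.00752) and 0.48 for NERT 30 (0.000399), lines without Pou3f1. For Pou3f1 in CD14 cells 1 of 9 members was called, beside 0.306% of all genes, and in CD2 cells 2 of 9, beside 2.09%. Pou3f1 itself differed by 0.45 ± 0.19 in the Pou3f1 line of CD14 cells (adjusted p = 0.583 by limma), reading 8.76 and 9.07 beside 8.31 to 8.48 with YFP. The difference between the effects of Pou3f1 on Pcdh10 in CD14 and in CD2 cells was -0.41 ± 0.25 (95% interval -0.92 to 0.09, adjusted p = 0.82 by limma). No member was called in that test of the difference, where 0.01% of all genes were. Outside the Pou3f1 lines, the highest Pcdh10 value in CD2 cells was 11.36, in the batch 5 array of the Hoxa5 line. Its batch 4 array, at 10.76, was below the highest YFP array. Its fitted difference of 0.86 ± 0.22 missed the threshold (adjusted p = 0.165), with no YFP array in either batch. Hoxa5 itself was higher by 1.17 ± 0.4 in that line (adjusted p = 0.323).

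Pcdh19, which pairs with N-cadherin and whose loss causes an epilepsy in girls, rose in 3 lines with Pou3f1. In CD2 cells it read 9.27 in batch 1, 9.29 in batch 2, and 8.57 and 8.58 in batch 4 with Pou3f1, beside 7.72 to 8.09 in the 4 YFP arrays, so the groups did not overlap. The fitted rise was 0.9 ± 0.2 (adjusted p = 0.0102 by limma), and leaving out any of 4 of the 8 arrays took it past the threshold, to adjusted p from 0.101 to 0.177, as did fitting the CD2 arrays alone (0.0717). The 6 batch 4 arrays read 8.19 to 8.58 for Pcdh19, whichever line they came from. Without them the rise was 1.48 (adjusted p = 1.03e-08), and the rises over YFP of the same batch were 1.37 in batch 1 and 1.56 in batch 2. Also without them, Pcdh19 was called lower in Tox (-0.87), Notch1ICD 30 (-0.61) and Klf6 (-0.54) and higher in Pou3f1-FLAG (0.62) and Pou3f1+Hoxc6 (0.45), which were not called with all arrays.

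In CD14 cells Pcdh19 read 7.74 and 7.68 in batch 6 and 7.47 and 7.44 in batch 7 with YFP. With Pou3f1 alone it read 8.88 and 9.2, a rise of 1.33 ± 0.26 (2 against 4 arrays, adjusted p = 0.00583 by limma), or 2.52-fold. The call was lost without any of 3 of the 6 arrays, at adjusted p from 0.0829 to 0.271. With Pou3f1+DNLhx3 it read 9.11 and 9.58, a rise of 1.63 ± 0.26 (adjusted p = 2.28e-05), or 3.1-fold, which was called whichever array was left out. With Pou3f1+Hoxa5 it read 7.83 and 7.67, which is 0.12 above and 0.04 below the YFP mean of that batch. Against Pou3f1 alone, Pcdh19 was lower by -1.29 ± 0.26 with Pou3f1+Hoxa5 (adjusted p = 0.00221 by limma) and by -0.89 ± 0.26 with Pou3f1+Hoxc6 (0.0228), where it read 8.1 and 8.22. Of 4 arrays left out in turn, 2 ended the first of these calls (adjusted p = 0.0853 and 0.0655) and 3 the second (0.102 to 0.237). So Pcdh10 was at its highest and Pcdh19 close to control in the same pair of Pou3f1+Hoxa5 arrays. Pcdh19 was also 8.49 in the single array of the E3 parental line in batch 6, above the YFP arrays.

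**Figure D2:**
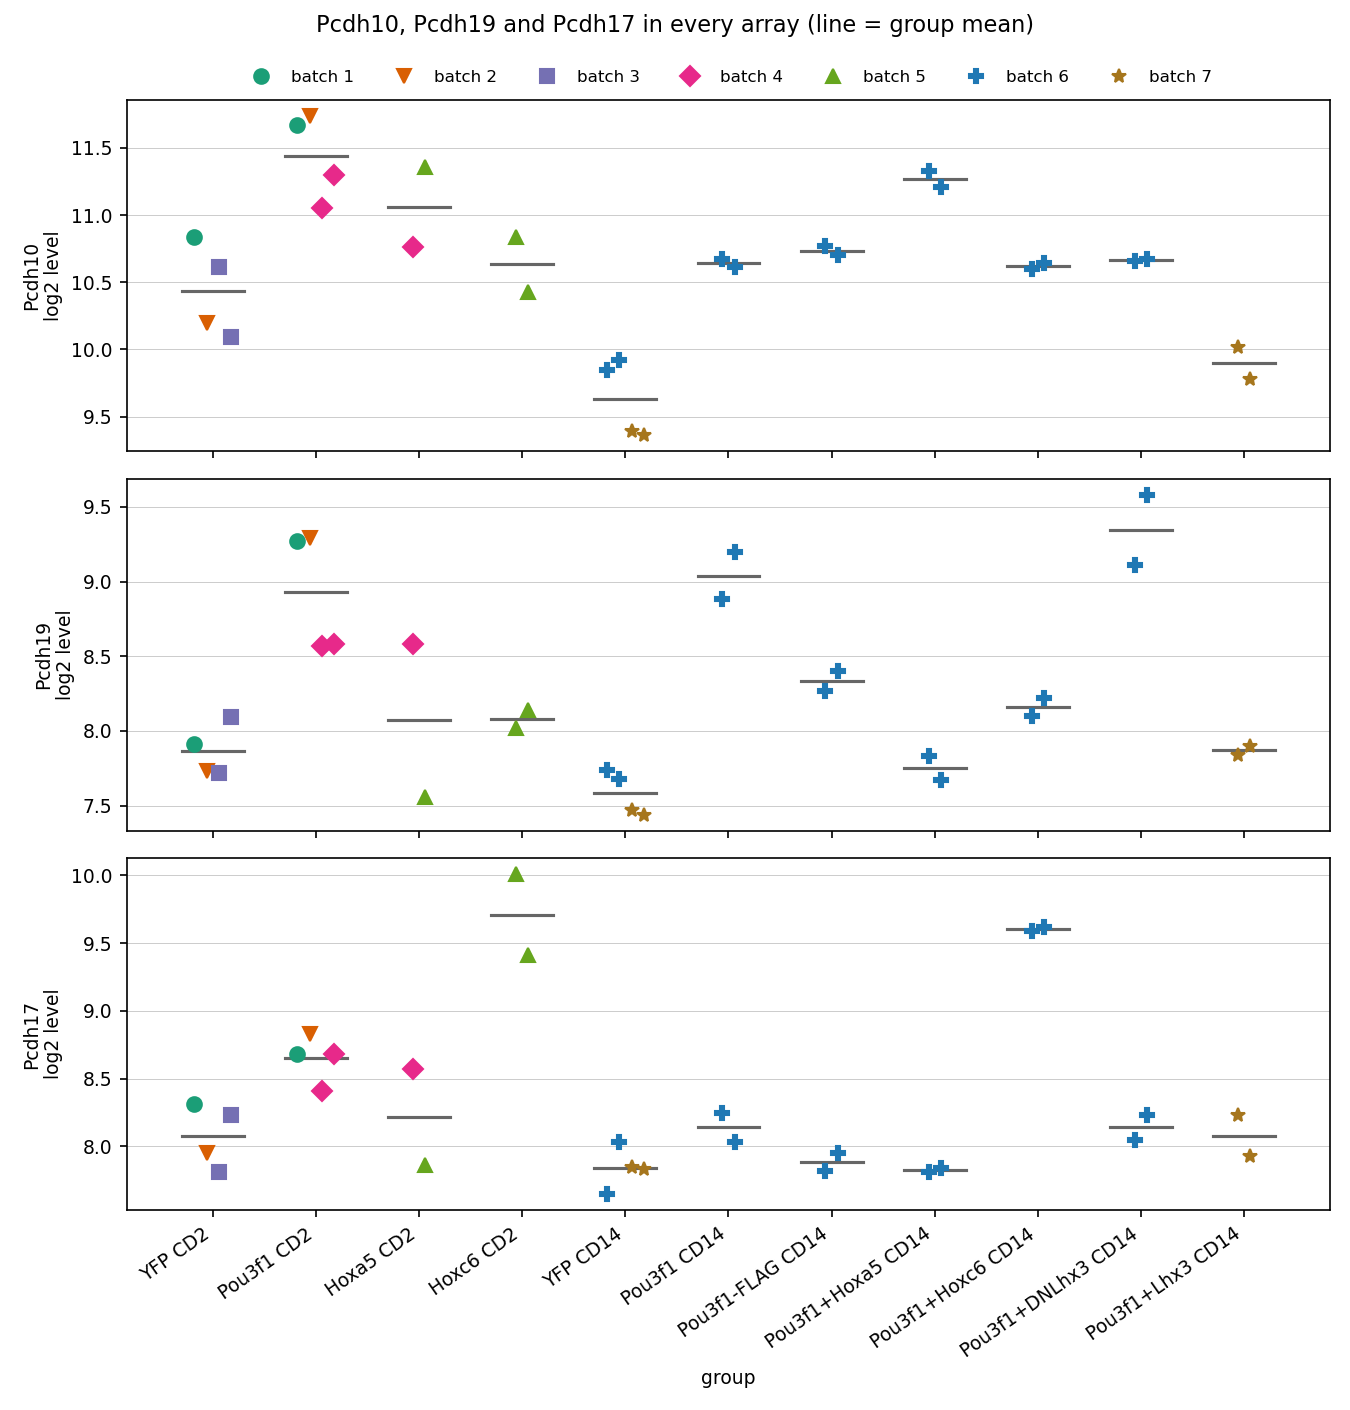
Log2 levels of Pcdh10, Pcdh19 and Pcdh17 in every array of the YFP, Pou3f1, Hoxa5 and Hoxc6 groups. Each symbol is 1 array, its shape and colour give the batch and grey lines are group means. Pcdh10 reaches 11.33 and 11.21 with Pou3f1+Hoxa5, Pcdh19 reaches 9.11 and 9.58 with Pou3f1+DNLhx3, and Pcdh17 is above 9.4 in both Hoxc6 groups.

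Pcdh17, which lets axons extend along one another, rose in both lines with Hoxc6, a brachial Hox gene, and did not pass in the other 24. In CD2 cells with Hoxc6 it read 10.01 and 9.41, beside 7.81 to 8.31 with YFP. In CD14 cells with Pou3f1+Hoxc6 it read 9.59 and 9.62, beside 7.65 to 8.03 with YFP. These 4 arrays lay above all other arrays of the series, of which the next highest was 8.83. The rise was 1.87 ± 0.27 for Hoxc6 (2 against 4 arrays, adjusted p = 5.68e-05 by limma), or 3.65-fold, and 1.76 ± 0.2 for Pou3f1+Hoxc6 (5.81e-08), or 3.39-fold. Both Hoxc6 arrays of CD2 cells were in batch 5, with no YFP array, and without the 6 batch 4 arrays that rise was 1.39 (adjusted p = 0.0191). Pcdh17 was higher by 1.46 ± 0.2 with Pou3f1+Hoxc6 than with Pou3f1 alone (adjusted p = 3.9e-06) and by 1.78 ± 0.2 than with Pou3f1+Hoxa5 (2.5e-07). Hoxc6 itself was higher by 3.03 ± 0.25 in CD2 cells and 3.5 ± 0.19 in CD14 cells, and Hoxa5 was higher there too, by 2.75 ± 0.49 and 2.77 ± 0.36. Pou3f1 was not at the same level in the lines compared. It was higher by 1.39 ± 0.19 with Pou3f1+Hoxc6 than with Pou3f1 alone (adjusted p = 2.49e-06 by limma). In the other 24 lines the difference of Pcdh17 from YFP lay between -0.19 and 0.45, the latter for Pou3f1 in CD2 cells (adjusted p = 0.158). That difference passed at 0.58 without batch terms (0.0228) and at 0.6 in batches with their own YFP (0.0331), and the arrays lay 0.38 and 0.88 above YFP of batches 1 and 2.

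In the Hoxc6 line of CD2 cells 2 of 9 members were called, both higher, beside 2.35% of all genes, and the median difference was 0.27 for the members and -0.06 for all genes. The other was Pcdh7, at 11.66 in both arrays beside 11.16 to 11.52 with YFP, a rise of 0.89 ± 0.25 (adjusted p = 0.0433 by limma). That call was lost without any of 5 of the 6 arrays compared (0.0502 to 0.104), and the difference was 0.45 (adjusted p = 0.507) without the 6 batch 4 arrays. With Pou3f1+Hoxc6, 4 of 9 members were called, 2 higher and 2 lower, beside 8.98% of all genes, and the medians were -0.23 and 0.06. Against Pou3f1 alone, 4 of 9 were called beside 8.97% of all genes. Against Pou3f1+Hoxa5, 2 of 9 were called beside 0.973%.

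Pcdh9, studied for its part in sensory and social memory in mice, and Pcdh7, both of the delta-1 subgroup, fell together in the lines with DNLhx3. Lhx3 is the LIM homeodomain factor that directs motor neurons and, later, those of the medial column. In CD2 cells with DNLhx3, Pcdh7 read 9.79 and 9.72 beside 11.16 to 11.52 with YFP, and Pcdh9 read 10.33 and 9.99 beside 11.08 to 11.62. In CD14 cells with Pou3f1+DNLhx3, Pcdh7 read 8.76 and 9.51 beside 10.7 to 11.24 with YFP, and Pcdh9 read 9.24 and 9.89 beside 11.16 to 11.33. No array of these lines overlapped with YFP. The Lhx3 probes differed by 0.33 ± 0.26 (adjusted p = 0.586) and 0.6 ± 0.28 (0.372), so they do not show the induced form. Pcdh7, whose cytoplasmic tail binds Set, fell by 1.44 ± 0.17 (adjusted p = 2.27e-07 by limma), or 2.71-fold, with DNLhx3. It fell by 2.1 ± 0.18 (7.88e-11), or 4.28-fold, with Pou3f1+DNLhx3. Pcdh9 fell by 1.34 ± 0.18 (1.88e-06) and 1.68 ± 0.19 (3.53e-08), or 2.53-fold and 3.21-fold. All 4 falls were called whichever array was left out and in every alternative of the closing section.

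With Pou3f1 alone, Pcdh7 read 11.34 and 11.38 and Pcdh9 11.25 and 11.14, within or close to the YFP arrays. Against Pou3f1 alone, Pou3f1+DNLhx3 was lower by -2.23 ± 0.18 for Pcdh7 (adjusted p = 3.44e-11 by limma) and by -1.63 ± 0.19 for Pcdh9 (1.34e-07), and these 2 of 9 members were called beside 2.11% of all genes. In the same comparison Pou3f1 differed by 0.53 ± 0.19 (0.178) and Hoxa5 was higher by 1.36 ± 0.36 (0.0295). With Pou3f1+Lhx3, in which Lhx3 itself was higher by 3.89 ± 0.28, Pcdh7 read 10.71 and 10.81 and Pcdh9 11.57 and 11.91. Pou3f1+Lhx3 exceeded Pou3f1+DNLhx3 by 2.16 ± 0.26 for Pcdh7 (7.02e-07) and 2.16 ± 0.27 for Pcdh9 (1.31e-06). These were the 2 members called there, beside 1.23% of all genes. Pcdh19 was lower there by -1.22 (adjusted p = 0.108), and passed without the 6 batch 4 arrays (0.000241) and in 4 other settings. Against Pou3f1 alone, Pou3f1+Lhx3 had no member called, beside 0.502% of all genes. At an unadjusted p under 0.05, 2 members passed in that comparison, with no share of all genes counted at that threshold. Pcdh19 differed there by -0.92 (adjusted p = 0.683), and passed in 5 settings, among them without the 6 batch 4 arrays (0.0134). In CD2 cells with Lhx3, Pcdh9 read 12.23 and 11.7, the first the highest of all arrays of induced lines, but the fitted difference of 0.67 ± 0.27 missed the threshold (adjusted p = 0.141).

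**Figure D3:**
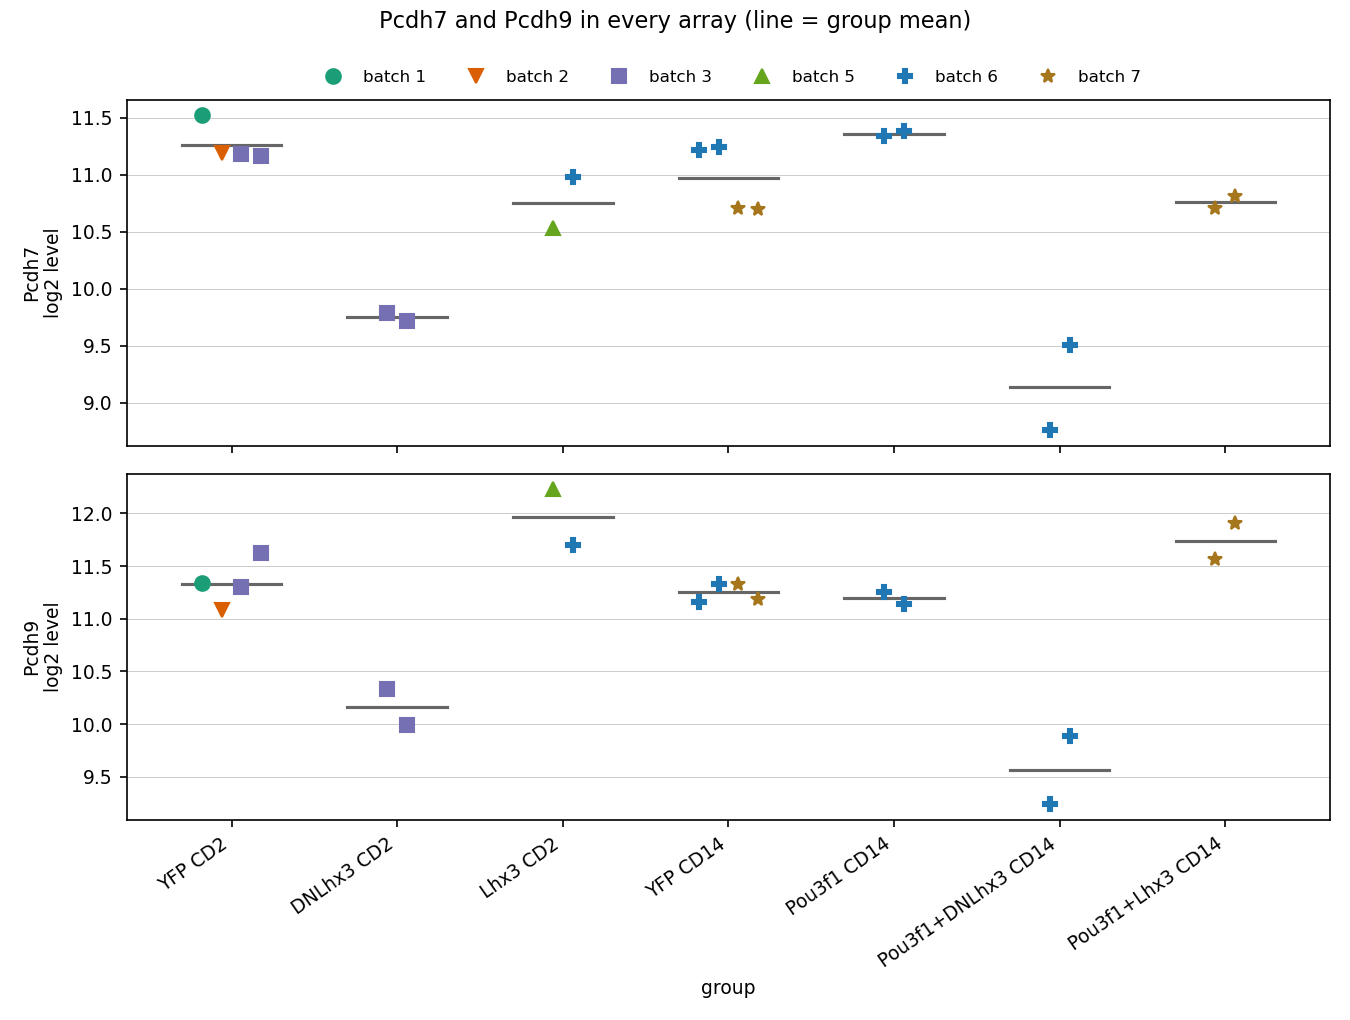
Log2 levels of Pcdh7 and Pcdh9 in every array of the YFP, Lhx3, DNLhx3 and Pou3f1 combination groups. Each symbol is 1 array, its shape and colour give the batch and grey lines are group means. The 4 arrays with DNLhx3 sit at 8.76 to 9.79 for Pcdh7 and at 9.24 to 10.33 for Pcdh9, below every YFP array.

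Markers of motor neurons moved with these falls, and so did a few genes on the progenitor list and Lhx1 on the ventral interneuron list. With DNLhx3, 5 of the 8 motor neuron markers were called lower (median difference -0.68), and their average was 10.38 to 10.54 beside 10.84 to 11.14 with YFP. With Pou3f1+DNLhx3, 6 of 8 were called lower (median -0.78), averaging 10.38 to 10.44 beside 11.11 to 11.21. Of 10 measured ventral interneuron markers 1 was called in each line, Lhx1, higher by 4.1 ± 0.36 with DNLhx3 and by 3.59 ± 0.38 with Pou3f1+DNLhx3. That list averaged 7.74 to 7.88 beside 7.37 to 7.53 with YFP, and 7.72 to 7.75 beside 7.25 to 7.38. Its median difference was only 0.03 in each line. Of 12 progenitor markers, Nkx6-1 was higher in both lines (0.74 ± 0.2 and 1.26 ± 0.22), and with Pou3f1+DNLhx3 Sox9 was higher (1.25 ± 0.28) and Vim lower (-0.32 ± 0.08). The progenitor list had median differences of -0.09 with DNLhx3 and 0.27 with Pou3f1+DNLhx3. Whether Lhx1, Nkx6-1 and Sox9 came from motor neurons or from other cells was not tested. The part of all these markers in the falls of Pcdh7 and Pcdh9 was not tested either. In the DNLhx3 line 3 of 9 members were called, all lower, beside 4.09% of all genes (medians -0.14 and -0.02). In the Pou3f1+DNLhx3 line 5 of 9 were called, 2 higher and 3 lower, beside 4% of all genes (medians 0.02 and -0.01).

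Pcdh9 also fell with Hoxa5 and with Hoxc6 as the partner of Pou3f1. It read 10.36 and 10.21 with Pou3f1+Hoxa5 and 10.25 and 10.21 with Pou3f1+Hoxc6, below the 11.16 to 11.33 of the YFP arrays. It fell by 0.96 ± 0.19 (adjusted p = 0.00134 by limma) with Hoxa5 and fell by 1.01 ± 0.19 (0.000287) with Hoxc6 as the partner. With Pou3f1-FLAG, which has no Hox partner, Pcdh9 read 10.71 and 10.6, also below the YFP arrays. That difference of -0.59 missed the threshold (adjusted p = 0.0875 by limma) but passed in CD14 arrays fitted alone (0.0182). Against Pou3f1 alone, Pcdh9 was lower by -0.91 ± 0.19 with Pou3f1+Hoxa5 (0.00324) and -0.97 ± 0.19 with Pou3f1+Hoxc6 (0.000703). The first of these lost its call without Pou3f1 replicate 1 (adjusted p = 0.0602) or Pou3f1+Hoxa5 replicate 3 (0.0942). Pcdh7 was lower by -0.62 ± 0.18 with Pou3f1+Hoxa5 than with Pou3f1 (0.0491), a call lost without any 1 of the 4 arrays (0.157 to 0.321). Of the motor neuron markers, 2 of 8 were called higher and none lower with Pou3f1+Hoxa5, and 3 higher and 1 lower with Pou3f1+Hoxc6. Of the 12 progenitor markers, 2 and 3 were called lower, and their part in the falls of Pcdh9 was not tested. In the Pou3f1+Hoxa5 line 2 of 9 members were called beside 5.92% of all genes, with medians of -0.46 for the members and 0.01 for all genes. Against Pou3f1 alone it was 3 of 9, all lower, beside 3.45% of all genes.

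In the Notch lines with the label 30, Pcdh9 fell and Pcdh1 rose, Pcdh1 being the delta-1 protocadherin best known from airway epithelium. Notch signalling through RBPJ holds neural cells in a progenitor state. Notch1 itself was higher by 1.57 ± 0.32 with Notch1ICD 30 (adjusted p = 0.000742 by limma) and 1.31 ± 0.34 with NERT 30 (0.0157). With the label 10 it differed by 0.57 (0.428) and 0.76 (0.528). With Notch1ICD 30, Pcdh9 read 10.2 and 10.39 beside 11.08 to 11.62 with YFP, and Pcdh1 read 8.54 and 8.46 beside 7.3 to 7.75. With NERT 30, Pcdh9 read 10.24 and 10.18 beside 11.16 to 11.33, and Pcdh1 read 8.03 and 8.1 beside 7.27 to 7.75. No array of either line overlapped with YFP for these 2 genes. Pcdh9 fell by 1.2 ± 0.18 (adjusted p = 4.61e-06 by limma) and fell by 1.05 ± 0.19 (0.000229), both called whichever array was left out. Pcdh1 rose by 0.93 ± 0.17 (0.000288), called whichever array was left out, and by 0.69 ± 0.19 (0.0235), a call lost without any of 4 of the 6 arrays (0.0576 to 0.289). Pcdh7 fell by 0.6 ± 0.17 with Notch1ICD 30 (0.0241), at 10.63 and 10.55 beside 11.16 to 11.52, and this call was lost without any of 4 of 6 arrays (0.0501 to 0.18) and in CD2 arrays fitted alone (0.0562). With NERT 30, Pcdh7 differed by -0.53 ± 0.18 (0.0927).

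With Notch1ICD 30, 3 of 9 members were called beside 6.07% of all genes, with medians of -0.2 and -0.03. With NERT 30, 2 of 9 were called beside 4.7% of all genes, with medians of -0.13 and -0.06. Markers of progenitors and motor neurons moved in these lines, and so did a few markers of interneurons and glia. With Notch1ICD 30, 6 of 8 motor neuron markers were called lower and 3 of 12 progenitor markers higher, the progenitor list averaging 11.13 to 11.19 beside 10.17 to 10.67 with YFP. With NERT 30, 7 of 8 were called lower and 4 of 12 higher, averaging 11.05 to 11.06 beside 10.05 to 10.37. Among progenitor markers, Hes5, a direct Notch target, was higher by 2.18 ± 0.17 and 2.68 ± 0.19. Notch1 is on that list too, in its averages and among the called markers of both lines. Its intracellular domain was what the Notch1ICD line induced, so its rise there is no separate sign of progenitors. The other called markers were Sox9, higher by 2.07 ± 0.27 and 2.09 ± 0.28, and, with NERT 30, Pax6 (0.9 ± 0.27). Of 10 ventral interneuron markers, 3 were higher with Notch1ICD 30 (Tal1 by 2.89 ± 0.12, Gata3 by 2.47 ± 0.17, Lhx5 by 1.05 ± 0.16) and 2 with NERT 30 (Tal1 by 2.74 ± 0.12, Gata3 by 1.75 ± 0.18). That list averaged 7.94 to 7.97 beside 7.37 to 7.53 with YFP, and 7.74 to 7.77 beside 7.25 to 7.38. Its median differences were 0.01 and -0.01. Of 5 glial markers Aldh1l1 was higher, by 0.94 ± 0.19 and 1.21 ± 0.2, and Mbp was lower with Notch1ICD 30 (-0.43 ± 0.12). The glial list as a whole did not rise, with median differences of -0.36 and -0.23. It averaged 7.96 to 8.03 beside 7.92 to 8.19 with YFP, and 8.04 to 8.14 beside 7.99 to 8.15. The part of these markers in the changes of Pcdh1 and Pcdh9 was not tested.

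The lines with the label 10 differed from those with 30. With NERT 10, Pcdh9 read 11.53 and 11.58 and Pcdh8 9.36 and 9.34, both above the YFP arrays of that batch, but no member was called. NERT 30 was lower than NERT 10 by -1.35 ± 0.19 for Pcdh9 (adjusted p = 4.94e-06 by limma) and by -0.87 ± 0.17 for Pcdh8 (0.001), with all 4 arrays in batch 7 and both calls kept whichever array was left out. These were 2 of 9 members, beside 3.78% of all genes. Between Notch1ICD 30, in batch 3, and Notch1ICD 10, in batch 4, the fitted differences were -1.46 ± 0.23 for Pcdh9 (3.98e-05), -1.5 ± 0.21 for Pcdh8 (4.65e-06) and 0.75 ± 0.23 for Pcdh1 (0.044). That was 3 of 9 members, beside 6.41% of all genes. Without the 6 batch 4 arrays all 3 lost their calls, at -1.26 (adjusted p = 0.0541), -1.01 (0.104) and 0.55 (0.527), while Pcdh19 gained one, at -1.34 (0.00495, beside 0.282 with all arrays). Without batch terms the 3 were -0.77 (0.0976), -0.22 (0.877) and 0.55 (0.132). The call of Pcdh1 was also lost without any 1 of its 4 arrays (0.0527 to 0.249).

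**Figure D4:**
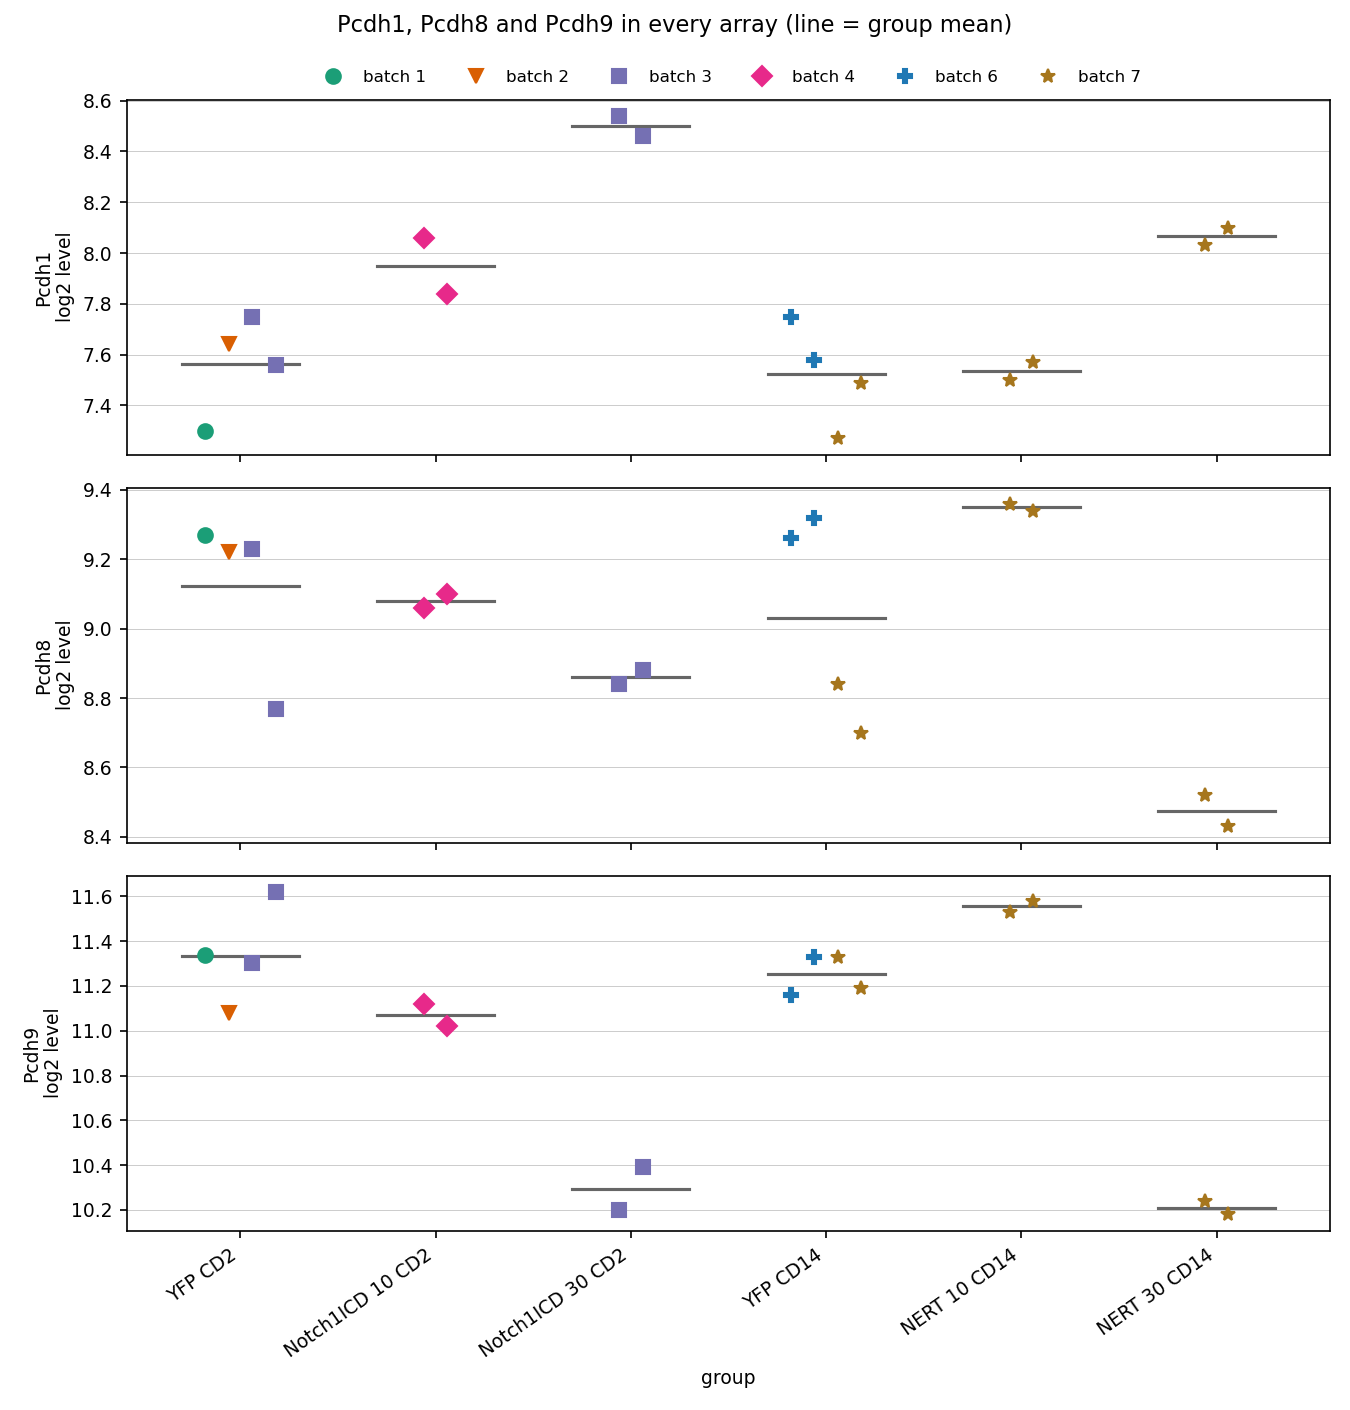
Log2 levels of Pcdh1, Pcdh8 and Pcdh9 in every array of the YFP, Notch1ICD and NERT groups. Each symbol is 1 array, its shape and colour give the batch and grey lines are group means. Pcdh9 is at 10.18 to 10.39 in the 4 arrays labelled 30 and at 11.02 to 11.58 in the 4 labelled 10.

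Pcdh8, the activity-regulated member also called arcadlin, whose partner Taok2 acts in the uptake of N-cadherin, was called in 7 lines, and none of those calls held without batch terms, whereas all 6 of Pcdh9 against YFP held in every setting. In CD2 cells outside batch 4 it had a median of 9.09 over 36 arrays. In the 6 batch 4 arrays with high Hoxa5 it read 7.35 to 8.35, and in the other 3 of that batch 8.51 to 9.1. Notch1ICD 10 was called higher by 1.31 ± 0.18 (adjusted p = 1.06e-05 by limma), although its 2 arrays, at 9.06 and 9.1, lay inside the 8.77 to 9.27 of the YFP arrays. Both were in batch 4, with no YFP array. Without the 6 arrays the difference was 0.88 (adjusted p = 0.186), and without batch terms it was -0.05 (0.983). In this line 1 of 9 members was called, beside 2.96% of all genes.

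**Figure D5:**
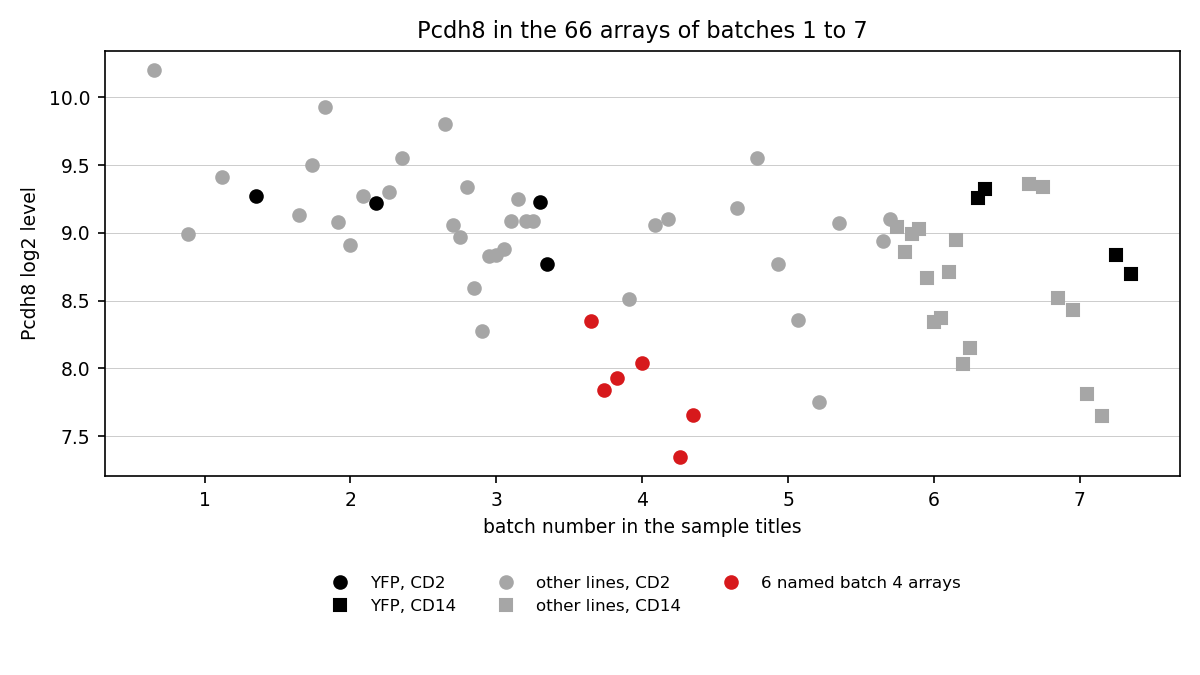
Pcdh8 log2 level in the 66 arrays of batches 1 to 7, by batch number, with YFP arrays in black, other CD2 lines as grey circles, other CD14 lines as grey squares and the 6 batch 4 arrays with high Hoxa5 in red. Points within a batch are spread sideways only to be seen apart. The red points lie at 7.35 to 8.35.

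The other changes of Pcdh8 against YFP were in lines outside batch 4. Without batch terms every one of them missed the threshold, with the same direction, at adjusted p from 0.0604 (Pou3f1+Lhx3) to 0.62 (Klf5). With Klf5, a zinc-finger factor that itself rose by 3.27 ± 0.13, Pcdh8 read 10.2 in batch 1 and 9.93 in batch 2, 0.93 and 0.72 above YFP of the same batch and above every other array. The rise was 0.87 ± 0.16 (adjusted p = 0.00327 by limma), lost without Klf5 replicate 7 (0.319) or YFP replicate 1 of batch 1 (0.0508). It was the 1 member called in that line, beside 0.311% of all genes. Pcdh8 was lower in 4 lines in which all arrays lay below the YFP arrays of their batch. It read 8.03 and 8.15 with Pou3f1+Hoxc6 (fell by 1.2 ± 0.17, adjusted p = 4.6e-06), 8.34 and 8.37 with Pou3f1+DNLhx3 (fell by 0.93 ± 0.17, 0.000283), beside 9.26 and 9.32 with YFP in batch 6. It read 7.81 and 7.65 with Pou3f1+Lhx3 beside 8.84 and 8.7 with YFP in batch 7 (fell by 1.04 ± 0.17, 7.07e-05), the 1 member called there beside 3.94% of all genes. It read 8.59 and 8.28 with DNLhx3 beside 9.23 and 8.77 with YFP in batch 3, where it fell by 0.62 ± 0.16 (adjusted p = 0.018). That call was lost in CD2 arrays fitted alone (0.086) and without DNLhx3 replicate 2 (0.338) or YFP replicate 1 of batch 3 (0.0612).

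With Lhx3 in CD2 cells Pcdh8 read 7.75 in batch 5 and 8.94 in batch 6. The fitted fall (fell by 1.13 ± 0.25, adjusted p = 0.00899 by limma) rested on the first array: without it the difference was -0.26 (adjusted p = 0.905). Here 1 of 9 members was called, beside 3.81% of all genes. Between lines, Pou3f1+Hoxc6 was lower in Pcdh8 than Pou3f1 alone by -0.84 ± 0.17 (0.0012), and lower than Pou3f1+Hoxa5 by -0.74 ± 0.17 (0.0173), of which the second was lost without any 1 of the 4 arrays (0.0571 to 0.39).

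With Pou3f1-FLAG in CD14 cells 2 of 9 members were called, beside 2.44% of all genes, Pcdh10 higher and Pcdh1 lower. Pcdh1 read 7.19 and 6.76 beside 7.27 to 7.75 with YFP, so it did not overlap, and fell by 0.69 ± 0.19 (adjusted p = 0.0402 by limma). It was lower by -0.68 ± 0.19 than with untagged Pou3f1 (0.0425), the 1 member called there beside 2.21% of all genes. Pcdh7, lower by -0.64 ± 0.18 (0.0536), passed in 8 of 10 other settings (0.0128 to 0.048), and Pcdh19, lower by -0.71 ± 0.26 (0.143), in 4 (0.00408 to 0.00696). Neither call of Pcdh1 held throughout. Leaving out any of 3 of the 6 arrays ended that against YFP (adjusted p from 0.116 to 0.432 by limma). Leaving out any of the 4 arrays ended that against untagged Pou3f1 (0.0509 to 0.394).

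Pcdh18, a binding partner of the adaptor Dab1, and Pcdh20, known from cell positioning in the cortex, passed in no line. Pcdh18 was the most variable member between arrays of a group, with a pooled SD of 0.44 beside 0.16 to 0.27 for the other 8. Its values ran from 7.18 to 10.14 in the induced lines and from 8.26 to 10.17 in the 4 YFP arrays of CD2 cells. Its difference furthest from 0 was -1.05 ± 0.43 with Notch1ICD 10 (95% interval -1.91 to -0.19, adjusted p = 0.195 by limma). With Notch1ICD 30 it was -1.04 ± 0.38 (-1.81 to -0.28, 0.106). Pcdh20 read 5.9 to 7.03 in the induced lines and its differences from YFP lay between -0.45 and 0.27 (lowest adjusted p 0.239). Its mean over all arrays was 6.43, below the array medians of 7.57 to 7.84 in batches 1 to 7. Whether it was detected is unknown, so the lack of calls does not show that it was unresponsive. The standard error of a Pcdh18 difference, 0.32 to 0.58, limits what could be detected for it with 2 arrays per line.

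Among 17 known partners of delta protocadherins, 16 were measured. The list holds the WAVE complex (such as Nckap1 and Wasf1), Taok2, Set, Ppp1ca, Cdh2 and Dab1. At least 1 partner was called in 12 lines, and in 9 of them Dab1, the adaptor of Reelin signalling in migrating neurons, was higher. The calls were 1 to 3 of 16 in each of those lines, beside 0.0602% (Tox) to 8.98% (Pou3f1+Hoxc6) of all genes. Dab1 rose by 1.59 ± 0.16 with DNLhx3 (adjusted p = 4.06e-09 by limma), 1.51 ± 0.23 with Hoxc6 and 1.38 ± 0.16 with Notch1ICD 30. Wasf1 rose by 0.41 ± 0.09 with DNLhx3 and with Pou3f1+DNLhx3. Wasf2 was lower by -0.79 ± 0.18 with Pou3f1+Hoxc6 (0.00282) and by -0.59 ± 0.18 with Pou3f1+Hoxa5 (0.0409). Median differences of the 16 partners lay at 0.02 for DNLhx3, 0.05 for Pou3f1 in CD2 cells and 0.04 for Pou3f1+Hoxc6, near those of all genes.

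Of 4 other non-clustered protocadherins, Pcdh11x, the X-linked delta-1 member that lay outside the list of 9, was called in 6 lines, in which 2.09% to 8.98% of all genes were. It rose by 1.4 ± 0.3 with Pou3f1 in CD2 cells (adjusted p = 0.00566 by limma), 1.43 ± 0.37 with Pou3f1-FLAG (0.0323), 1.62 ± 0.37 with Pou3f1+Hoxa5 (0.00626) and 1.61 ± 0.37 with Pou3f1+Hoxc6 (0.00368). It was lower by -1.17 ± 0.35 with DNLhx3 (0.0468) and by -2.16 ± 0.51 with Hoxc6 (0.0132). Pcdh12 was lower by -0.75 ± 0.21 with Lhx3 (0.0376). Of the 22 clustered Pcdhb genes, at most 2 were called in any line, beside 4% of all genes in that line. Those were Pcdhb16, at 0.84 ± 0.18 (0.00207), and Pcdhb2, at 0.61 ± 0.15 (0.0105), with Pou3f1+DNLhx3. The gene clusters of that family hold close paralogues whose transcripts may share probes.

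Across the 30 groups outside batch 0, each gene's fitted level was set against every other gene's after the mean of each reporter was removed. These correlations are descriptions: the groups share batches and controls, and no p is given. Among members, Pcdh7 and Pcdh9 were most alike (Pearson r = 0.64), then Pcdh10 and Pcdh19 (0.48). Over all genes, Pcdh7 was most like Slit2 (0.91), a secreted repellent of axons, and Unc5c (0.9), a netrin receptor. Pcdh9 was most like Mfap3l (0.94) and Rgs7 (0.88), a regulator of G protein signalling. Pcdh17 was most like Gabra4 (0.94), a GABA-A receptor subunit, and the induced gene Hoxc6 (0.92). Pcdh8 was most like Htr1a (0.87), a serotonin receptor, and Ubash3b (0.86). The closest genes to the other members were less alike: Adamts3 and Ston2 for Pcdh1 (both 0.79), Nsf (0.78) and Bbs1 (0.77) for Pcdh19, and Dok5 and Mast4 for Pcdh10 (both 0.73).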

How the data were processed

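Gene expression was measured on 68 Affymetrix mouse gene arrays of total RNA. The authors deposited log2 values of 35556 transcript clusters, for which the submitters' processing notes name RMA and oligo. RMA subtracts a modelled background, equalises by quantiles the distributions of arrays that are processed together, and combines the probes of a cluster. Which arrays were processed together is unknown. The array medians given above were unequal, and batch 0 had the lowest, so a distribution shared by all 68 arrays cannot be assumed. The versions were not given in the sources used here, and neither was an annotation build. Scanner signals were not analysed here, so detection of single probes is unknown, and the number of arrays limits the precision. Quantile normalization can hide a shift shared by most genes.

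Clusters were named through the platform annotation and a RefSeq gene table (GRCm38.p6). Of 23410 annotated clusters, 21789 had 1 symbol, and for 999 genes with several the one with the highest mean was kept, which left 19938 genes. All arrays entered 1 fit with limma 3.58.1 in R 4.3.3, with a term per group and per batch (37 columns, 31 residual degrees of freedom, lmFit and eBayes). P-values are two-sided, with Benjamini-Hochberg adjustment over all genes of each comparison, and ± is the standard error. There were 26 comparisons with YFP of the same reporter and 10 between lines. All share controls or groups, so they are not independent.

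The text names the 9 members throughout, up to 3 called genes per list and comparison, the induced gene where a member was called, and the 2 genes most like each called member; other genes named stand outside that rule. Members, lists, tests and alternatives were chosen with earlier results of these data known. The fit was tested on simulated data.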

Additional observations from a re-analysis of the deposited data

Results flagged for a closer look

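In the groups of 4 arrays, 3 values stood apart from the other 3 by Dixon's criterion, of 27 combinations of a group and a member tested; chance flags about 1 in 20. Pcdh9 read 11.42 in the batch 2 array of Pou3f1 in CD2 cells, beside at most 10.93 in the others. Pcdh7 read 11.52 in the batch 1 array of YFP in CD2 cells, beside at most 11.19. Pcdh8 read 8.77 in 1 of the 2 batch 3 arrays of YFP in CD2 cells, beside at least 9.22.

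The lines labelled 30 and 10 differed for some members in a test of the difference itself (limma, adjusted over all genes). NERT 30 was below NERT 10 by -1.35 for Pcdh9 and -0.87 for Pcdh8, with all arrays in batch 7. Notch1ICD 30 minus Notch1ICD 10 was -1.46 for Pcdh9, -1.5 for Pcdh8 and 0.75 for Pcdh1, but these lines lay in batches 3 and 4, and without the 6 batch 4 arrays none of the 3 passed. In that setting Pcdh19 passed instead, at -1.34 (adjusted p = 0.00495 by limma).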

How the results depend on the processing

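Of the 49 called pairs of a member and a comparison, 22 kept their call in every alternative setting and whichever array of the compared groups was left out. Leaving out 1 array at a time gave 24 to 31 calls against YFP (30 with all arrays), 15 to 21 between lines (19), and 42 to 49 of the 49 pairs. The one change of direction was that of Pcdh8 in Notch1ICD 10, at -0.05 without batch terms. Without batch terms 31 of the 49 pairs were called. With the arrays of each reporter fitted apart, 30 between-line pairs were called in the 9 comparisons that fit allows. For the 26 lines the count was 40. In that fit the number of all genes called went from 1790 to 4897 for Pou3f1+Hoxc6. It went from 1788 to 5618 for Pou3f1+Hoxc6 minus Pou3f1, and from 417 to 134 for Pou3f1 in CD2 cells. Calls against YFP numbered 25 without batch terms, 37 in the 21 lines that could be fitted in batches with their own YFP (26 in those lines with all arrays), and 30 to 33 under the other settings. The number of all genes called moved too. For NERT 30 it was 938 in the main fit, 1864 without batch terms and 1367 in batches with their own YFP. With a replicate block (arrays of the same batch, reporter and number), calls were 30 against YFP, 20 between lines and 49 of 49 pairs, at a block correlation of 0.036. The numbers do not pair the arrays: same-numbered arrays of batch 3 deviated together at r over 0.1 in 6 of 15 pairs of groups, and in batch 6 at -0.14 to 0.16. The number of arrays, 2 in most lines, limits all of these.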
